A study of Mus musculus with 9 samples.

Results

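Messenger RNA of cultured mouse neural stem cells was compared between cells carrying shRad21_2, 1 of the study's pair of short hairpin RNAs against Rad21, and cells carrying shNT, a non-targeting hairpin. The comparison used 6 of the 9 libraries of the series, 3 per group, and described 13560 genes whose counts were high enough to test, of 24503 listed. Another 3 libraries carried shRad21_1, a hairpin that lowered Rad21 less, and helped to estimate the spread between libraries. The cells were primary neural stem cells from the cortex of mouse embryos at embryonic day 13.5, enriched as neurospheres and then grown on laminin with FGF at 10 ng/mL and EGF at 20 ng/mL. All groups had the same genotype, wild type with floxed Phf2 alleles (Phf2 f/f), and the labels name no Cre. The hairpins were delivered with viral particles, and the labels give no time between delivery and harvest. Each group carries 1 hairpin, so effects through Rad21 and effects of that hairpin on other transcripts cannot be told apart here. The labels do not say whether replicates came from separate cultures or embryos, so the p-values measure the spread between these libraries, which may be technical.

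Rad21 is the kleisin subunit that closes the cohesin ring formed with Smc1a and Smc3. Cohesin holds sister chromatids together until mitosis, and it also extrudes chromatin loops, many of which end at sites bound by Ctcf and link distant enhancers with promoters or keep them apart. Neural stem cells of the embryonic cortex divide in response to FGF and EGF, give rise to neurons first and glia later, and use Notch, Wnt and STAT3 signals to time that sequence.

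The 6 libraries held between 34780003 and 46644607 counts. The first principal component of their log2 levels took 78.5% of the variance and separated the groups. Library by library, the shNT replicates 2 and 3 were much alike (chi-square per gene of 3.13, against 22.2 and 23.3 for the pairs with replicate 1 and 46.9 to 55.6 among shRad21_2 libraries). shNT replicate 1 stood apart from them in some genes named here, such as Col6a1. In shRad21_2 replicate 1, 0.483% of counts were Rn45s, the ribosomal RNA precursor, against 0.0626% to 0.114% in the other 5. Values are CPM, each gene's counts relative to a composition-scaled library total. A gene is called higher or lower where its adjusted p from edgeR's quasi-likelihood test, adjusted over all genes tested, is below 0.05. The ± after a log2 fold change is its standard error, for 3 libraries against 3, with the spread between libraries estimated over all 9.

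The target itself was lower in every shRad21_2 library. Rad21 (chr15:51962240-51991747, GRCm38) stood at 531, 450 and 456 CPM in shNT and at 82.0, 91.2 and 82.5 CPM in shRad21_2. The groups lay far apart, with a log2 fold change of -2.49 ± 0.09 (edgeR adjusted p = 2.83e-07). Of 17 tested members of a list of cohesin, its regulators and Ctcf, 7 were called higher and Rad21 and Hdac8 lower, beside 21.1% of all genes called higher and 22.5% called lower.

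Stag1, which encodes 1 of the alternative subunits that bind Rad21, rose most. It went from 114, 102 and 102 CPM to 233, 274 and 246 CPM without overlap (log2 fold change 1.25 ± 0.09, edgeR adjusted p = 7.05e-06). Its paralog Stag2 rose by 0.38 ± 0.10 on the log2 scale and the ring subunit Smc3 by 0.36 ± 0.07. Smc1a rose by 0.23 ± 0.06, a call that was lost without shNT replicate 2. Ctcf (0.19 ± 0.06) and the loader Nipbl (0.41 ± 0.15) were called higher too, and each lost its call without any 1 of several libraries of the 3 groups. The acetyltransferase Esco1 rose by 0.40 ± 0.08. Hdac8, the deacetylase of Smc3, fell by 0.47 ± 0.11. The list's 7 higher calls became 4 without shNT replicate 2. The regulators Pds5a, Pds5b and Wapal had log2 fold changes of 0.28, 0.31 and 0.19 and were not called.

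Across the transcriptome, 5917 genes were called, 43.6% of those tested: 2861 (21.1%) higher and 3056 (22.5%) lower. The 2 directions were near balance in number and far apart in size. The median log2 fold change was 0.47 among genes called higher and -0.90 among genes called lower. Genes called and at least 2-fold changed numbered 1754 (12.9%), of which 365 (2.69%) were higher and 1389 (10.2%) lower. At 8-fold and beyond (a log2 fold change of 3), 29 genes were higher and 240 lower. Over all genes tested the log2 fold change had a median of 0.01, with 5% of genes below -1.81 and 5% above 0.80. Scaling by library totals alone, with no composition factor, gave 2167 higher and 3541 lower calls, so that 38% of calls were higher in place of 48.4%. With the closely alike libraries summed (shNT replicates 2 and 3, and likewise those of shRad21_1), a setting chosen after seeing the data, 3707 genes were called, 1580 of them higher.

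**Figure D1:**
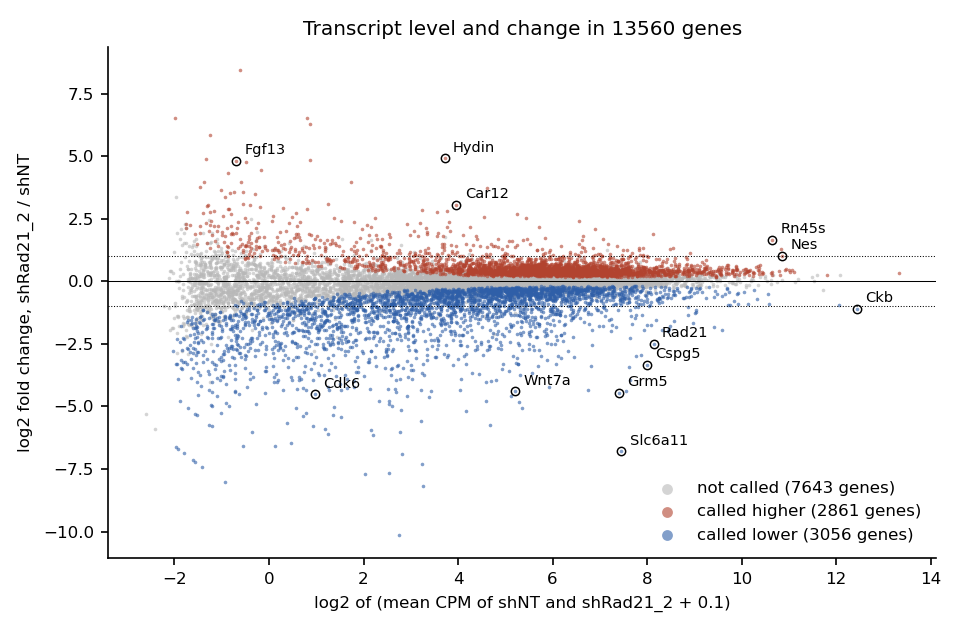
Each point is 1 of 13560 genes, by its mean level (log2 of CPM plus 0.1, horizontal axis) and its log2 fold change of shRad21_2 over shNT (vertical axis). Red points are the 2861 genes called higher, blue points the 3056 called lower, dotted lines mark 2-fold, and the blue cloud reaches farther from 0 than the red one.

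Level and gene length went with the direction of calls. With genes in 5 equal bins, in the bin with the lowest shNT level (up to 3.9 CPM), 8.44% were called at least 2-fold higher and 20.6% at least 2-fold lower. In the bin with the highest level, from 91.8 CPM, those shares were 0.737% and 4.57%, while 30.5% were called higher and 18.3% lower at any size. By span in the genome, 30.1% of the bin with the longest genes (76.7 kb and more) were called lower and 18.9% higher. In the bin with the shortest, up to 8.22 kb, 17.4% were lower and 21.8% higher. The level bins were cut on shNT, 1 of the groups compared. A gene near 0 there could be tested only through its counts under a Rad21 hairpin, so that choice in part sets the shares. Level, length and power to call a gene vary together, and their separate parts were not tested.

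The genes described next are the 15 with the largest fold change each way among called genes whose mean log2 CPM was 1 or more and whose groups did not overlap. Their values were those that chose them, and they are given as a description. Among those lower, Slc6a11 led. It encodes the GABA transporter GAT-3 of astrocytes (chr6:114131241-114249952). It stood at 361, 345 and 335 CPM in shNT and at 3.5, 3.23 and 2.77 CPM in shRad21_2, a log2 fold change of -6.77 ± 0.56.

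Several of the others encode proteins of synapses and neuronal excitability. Grm5, the metabotropic glutamate receptor mGluR5, went from 291, 349 and 333 to 13.1, 18.6 and 13.2 CPM (-4.44 ± 0.27). Cacng5, an auxiliary subunit of AMPA receptors, went from 54.7, 85.9 and 86.9 to 4.32, 1.79 and 1.71 CPM (-4.83 ± 0.34). Pex5l, which regulates HCN channels, had a log2 fold change of -4.78 ± 0.48, the postsynaptic scaffold Anks1b one of -4.56 ± 0.40 and the adhesion protein Cntnap4 one of -4.62 ± 0.20. In each of these genes every shRad21_2 library lay below every shNT library, a condition of the rule that chose them.

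The rest had varied roles. Sema5a, an axon guidance ligand, fell from 40.3, 32.6 and 31.0 to 1.22, 0.821 and 0.742 CPM. Wnt4, a Wnt ligand, fell from 12.5, 13.4 and 14.4 to 0.686, 0.176 and 0.228 CPM. Frem1, a basement membrane protein, had a log2 fold change of -5.58 ± 0.56, and Car8, a carbonic anhydrase relative that binds the IP3 receptor, one of -5.08 ± 0.30. Diras2, Kank4, Sorl1 and Ppp2r2b lay between -4.97 and -4.43. Col6a1, a chain of collagen VI, was uneven among the controls, at 5.77, 73.2 and 71.2 CPM in shNT against 0.797, 1.06 and 0.942 CPM (-5.76 ± 1.24). Its call was lost with limma-voom.

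Among genes higher, Hydin led, a gene of the central apparatus of motile cilia (chr8:110266977-110610253). It went from 0.962, 0.779 and 0.754 CPM to 30.7, 25.7 and 19.6 CPM (4.93 ± 0.79). Car12, a membrane carbonic anhydrase, went from 3.46, 3.16 and 3.28 to 29.8, 26.2 and 27.2 CPM (3.07 ± 0.19). St8sia2, which makes polysialic acid on NCAM, went from 2.58, 2.31 and 1.91 to 18.8, 15.6 and 15.2 CPM (2.87 ± 0.26).

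Genes of the cell surface and of transcription were also in this group. Prom1, the stem cell surface protein prominin-1, had a log2 fold change of 2.55 ± 0.18, Lynx1, a modulator of nicotinic receptors, one of 2.58 ± 0.13 and Jph4, a junctophilin, one of 2.53 ± 0.29. Bcl11a and Tox2, both transcription factors, had 2.39 ± 0.25 and 2.77 ± 0.56. Phldb2, a cortical microtubule anchor, was the most abundant of the 15, at 29.4, 31.5 and 29.2 CPM in shNT and 182, 152 and 141 CPM in shRad21_2. Col28a1 (3.72 ± 0.72), Klhl4 (2.80 ± 0.14), Afap1l2, Edaradd and Sec16b completed the group with Pf4. The call of Pf4 (2.36 ± 0.79) was lost without any single shNT or shRad21_2 library and in DESeq2.

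**Figure D2:**
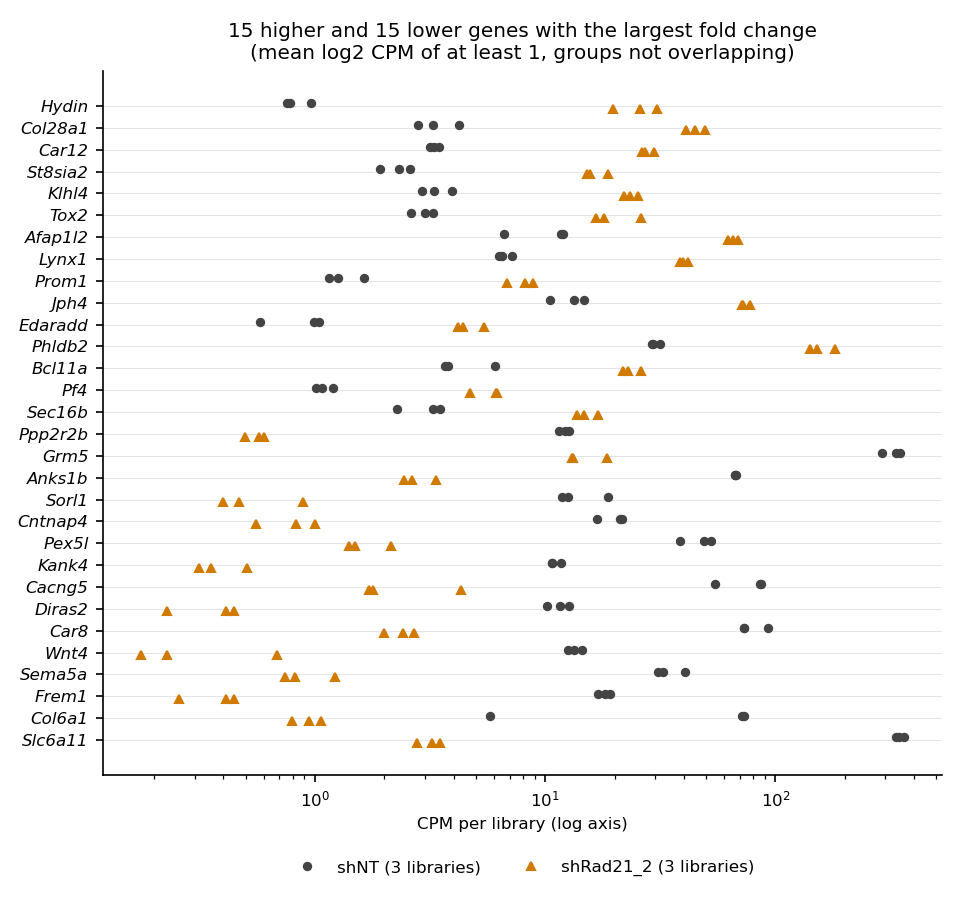
Level in each library (CPM, log axis) of the 15 higher and 15 lower genes with the largest fold change under the rule above, with shNT libraries as dots and shRad21_2 libraries as triangles. The groups do not overlap in any of the 30, a condition of the rule, and the shNT library at 5.77 CPM of Col6a1 sits far from the other controls.

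By difference in level rather than fold, the largest gains were in Eef1a1, Rn45s, Tmsb10, Nes and Rps2. Nes, which encodes the intermediate filament nestin of neural stem cells, stood at 1325, 1153 and 1174 CPM and then 2695, 2451 and 2325 CPM (1.03 ± 0.17, edgeR adjusted p = 0.00116). Tmsb10, which sequesters actin monomers, went from 972, 1116 and 1085 to 2995, 2109 and 2692 CPM. Eef1a1, the elongation factor that delivers tRNAs to the ribosome, rose by 0.35 ± 0.08. The gain of Rn45s rested on 1 library: it was 4990 CPM in shRad21_2 replicate 1, 1164 and 1140 CPM in the others, and 613, 616 and 1066 CPM in shNT. Its log2 fold change of 1.67 became 0.59 without that library, and the call was lost there and without either of the shNT replicates 1 and 2.

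The largest losses by level were in Ckb, Scd2, Maged1, Ptprz1 and Cpe. Ckb, brain creatine kinase, went from 6504, 7986 and 8084 to 3764, 3131 and 3731 CPM (-1.09 ± 0.13). Ptprz1, the radial glial receptor phosphatase (chr6:22875502-23052916), went from 1305, 1213 and 1147 to 286, 393 and 274 CPM (-1.94 ± 0.20, edgeR adjusted p = 6.67e-05). Scd2, a fatty acid desaturase, fell by 0.94 ± 0.13 and Cpe, which trims peptide hormones, by 1.83 ± 0.20.

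The clearest shift of a housekeeping group was in ribosome production. Of 45 genes for ribosome biogenesis, which transcribe, cut, modify and assemble ribosomal RNA in the nucleolus, 42 (93.3%) were called higher and none lower. Their median log2 fold change was 0.60, against 0.01 over all genes, of which 21.1% were called higher. Gnl3, the nucleolar GTPase nucleostemin, stood at 83.1, 75 and 71.3 CPM in shNT and 146, 156 and 180 CPM in shRad21_2 (1.07 ± 0.09, edgeR adjusted p = 2.78e-05). Rrs1, a 60S assembly factor, went from 88.8, 88.3 and 92.8 to 174, 158 and 172 CPM (0.90 ± 0.07). The small-subunit processome members Cirh1a and Wdr43 rose by 0.97 ± 0.09 and 0.78 ± 0.07. Utp11l, Taf1b and Rrp1 were not called, at 0.16, 0.10 and -0.11.

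Cytoplasmic ribosomal proteins were higher by less. Of 79 tested, 60 were called higher and none lower, with a median log2 fold change of 0.41 (38 higher where shNT replicates 2 and 3, and likewise those of shRad21_1, were summed). Rpl23 went from 714, 774 and 796 to 1108, 988 and 1276 CPM (0.56 ± 0.10), and Rpl15 from 762, 786 and 798 to 1040, 1047 and 1218 CPM. Rps2 rose by 0.47 ± 0.08. Genes of this family have processed copies elsewhere in the genome, so single members are uncertain. Myc, a transcription factor with many ribosome biogenesis targets, rose from 127, 176 and 170 to 358, 293 and 324 CPM (1.04 ± 0.16).

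The E-box CACGTG, the sequence bound by Myc with Max, was sought on both strands in the 250 bases before the RefSeq start (GRCm38.p6). It lay in 3 of 37 ribosome biogenesis promoters (8.11%), in 11.1% of the promoters of genes called higher and in 9.82% of all 10263 promoters. These shares differ little, and they describe the letters in that window alone.

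Other housekeeping machines moved less. Of 77 subunits of oxidative phosphorylation, 1 (1.3%) was called higher and 7 (9.09%) lower, with a median of -0.01. Of all genes, 21.1% were higher and 22.5% lower. Sdha, the flavoprotein of complex II, fell from 402, 383 and 387 to 263, 242 and 248 CPM (-0.64 ± 0.06), and Atp5f1 by 0.70 ± 0.08. The calls of Ndufv3 and Sdhc were lost with single libraries left out, and the 7 lower calls ranged from 2 (without shNT replicate 3) to 12 (without shRad21_2 replicate 3) and were 4 without replicate 2 of shNT or of shRad21_2. The 1 higher call was 2 without shRad21_1 replicate 1, 9 without shRad21_2 replicate 2 and 0 without any other library but shNT replicate 1. Among 41 proteasome subunits 3 were lower, all of the inducible immunoproteasome: Psmb8, Psmb9 and Psmb10. The 7 higher, such as Psma4 (0.34 ± 0.08), became 3, 2 and 1 without the shNT replicates 1, 2 and 3, 3 without shRad21_2 replicate 3, 4 without shRad21_1 replicate 2 and 11 without shRad21_2 replicate 2.

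In glycolysis 3 of 23 members (13%) were higher and 6 (26.1%) lower, beside 21.1% and 22.5% of all genes. Isoforms of 1 step parted. Hk1, the constitutive hexokinase, fell by 1.14 ± 0.19, while Hk2 rose by 0.50. Eno2, the neuronal enolase, fell by 2.05 ± 0.31 and Aldoc, the aldolase of astrocytes, by 1.94 ± 0.28. Ldha, which makes lactate, rose from 733, 584 and 605 to 921, 975 and 1151 CPM. Higher calls numbered 1 without shNT replicate 2 or 3. Of 34 genes of cholesterol and fatty acid synthesis, 11 were lower and 4 higher. Hmgcs1, an early enzyme of the cholesterol pathway, went from 1365, 1488 and 1512 to 777, 794 and 786 CPM (-0.89 ± 0.15), and Me1, a source of NADPH, fell by 1.08 ± 0.10. The 4 higher calls were 2 without shNT replicate 2 or 3.

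Stress response genes were mostly lower where called: 11 of 33 (33.3%) lower and 2 (6.06%) higher, beside 22.5% and 21.1% of all genes. Cebpb, a transcription factor induced by stress and cytokines, went from 16.5, 18.7 and 20.6 to 1.13, 4.11 and 4.28 CPM (-2.57 ± 0.43). Psat1 of serine synthesis rose by 0.79 ± 0.12. The 11 lower calls were 5 without shNT replicate 2 or 3, 6 without shRad21_1 replicate 2 or shRad21_2 replicate 2, and 7 without shRad21_1 replicate 3 or shRad21_2 replicate 1.

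Cohesin's first role is in chromosome segregation, and genes of mitosis and condensin leaned higher by small amounts. Of 39 tested, 20 (51.3%) were called higher and none lower, beside 21.1% and 22.5% of all genes. Their median was 0.36, with no member at 2-fold. Smc4, a condensin subunit, went from 272, 230 and 223 to 317, 327 and 323 CPM (0.42 ± 0.08). Aurkb, a kinase of the chromosomal passenger complex, rose by 0.37 ± 0.08, Mad2l1 of the spindle checkpoint by 0.42 ± 0.11 and the separase Espl1 by 0.39 ± 0.10. These calls were sensitive to single libraries: the 20 became 5 without shNT replicate 2, 4 without shNT replicate 3, 10 without shRad21_2 replicate 1 and 13 without shRad21_2 replicate 3. They became 34 with replicate 1 of shNT and of shRad21_1 both left out, a setting chosen after seeing the data. The call of Mad2l1 was lost without shNT replicate 2. With library totals and no composition factor the count was 12.

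Genes of DNA replication gave 15 (32.6%) higher and 1 (2.17%) lower of 46, beside 21.1% and 22.5% of all genes. Rrm2, the ribonucleotide reductase subunit, stood at 383, 335 and 336 CPM and then 531, 538 and 596 CPM (0.66 ± 0.08, edgeR adjusted p = 0.000165). Tk1, thymidine kinase, rose by 0.63 ± 0.11, and the helicase genes Mcm7 and Mcm10 by 0.42 ± 0.07 and 0.41 ± 0.09. Higher calls numbered 6 without shNT replicate 2 or 3, 7 without shRad21_2 replicate 3 and 8 with library totals. They numbered 25 with replicate 1 of shNT and of shRad21_1 both left out, a setting chosen after seeing the data. The 1 lower call, Rpa1 (-0.24), was lost without most single libraries.

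DNA repair and checkpoint genes were called in 6 of 35, less often than the 43.6% of all genes. Of the list 11.4% was higher and 5.71% lower, beside 21.1% and 22.5% of all genes. The 4 higher were Parp1, Msh6, Xrcc1 and Nbn (0.35 to 0.45), and the 2 lower included Rad51c at -0.41. Lower calls numbered 0 when shNT replicate 1, shNT replicate 3 or shRad21_2 replicate 3 was left out, 1 for shNT replicate 2 or for either of the shRad21_1 replicates 2 and 3, and 4 for shRad21_2 replicate 2. The median of this list, 0.06, changed sign with library totals and no composition factor, the only list where it did.

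Regulators of entry into S phase moved farther, with 8 (34.8%) higher and 5 (21.7%) lower of 23. Of all genes, 21.1% were called higher and 22.5% lower, so the share lower was near that of all genes. Cdk6, a kinase partner of D cyclins, fell to near the limit of detection, from 4.12, 4.08 and 2.57 to 0.266, 0.088 and 0.0856 CPM (-4.51 ± 0.40, edgeR adjusted p = 3.04e-05). Its paralog Cdk4 rose by 0.22. Cdkn1c, the cell cycle inhibitor p57, rose from 3.05, 3.61 and 3.19 to 11.5, 12.6 and 15.7 CPM (2.01 ± 0.20), and E2f3 by 0.68 ± 0.10. The inhibitor genes Cdkn2a (-1.07) and Cdkn2b (-1.34), which lie next to each other, were both lower. The 5 lower calls were 3 without shNT replicate 3 or shRad21_2 replicate 3.

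Of 30 genes, p53 and its targets, 10 (33.3%) were higher and 6 (20%) lower, beside 21.1% and 22.5% of all genes. Trp53 itself, 1 of the 10, rose from 122, 127 and 122 to 219, 188 and 229 CPM (0.78 ± 0.10). Gadd45a, a growth arrest gene, rose by 1.31 ± 0.12, while Btg2, an antiproliferative gene, fell by 1.32 ± 0.13 and Ddb2, a damage sensor of nucleotide excision repair, by 1.42 ± 0.21. Cdkn1a, which encodes p21 and is the best known target, was not called (0.10).

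Replication-dependent histone genes gave 12 (32.4%) higher calls and none lower among 37 tested, all but Hist3h2a in the Hist1 group. Of all genes, 21.1% were higher and 22.5% lower. Transcripts of these histone genes have no poly(A) tail in dividing cells and many are near-identical, so single genes are uncertain. Hist1h3c stood at 0.357, 0.330 and 0.133 CPM in shNT and 2.15, 0.469 and 0.885 CPM in shRad21_2, with replicate 1 highest. That library also held the most Rn45s, and the part of that difference in the histone calls was not tested. Without shRad21_2 replicate 1 only 1 histone gene was called higher, and the counts were 2 and 3 without shNT replicates 2 and 3. A single member was called lower without shRad21_2 replicate 2.

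**Figure D3:**
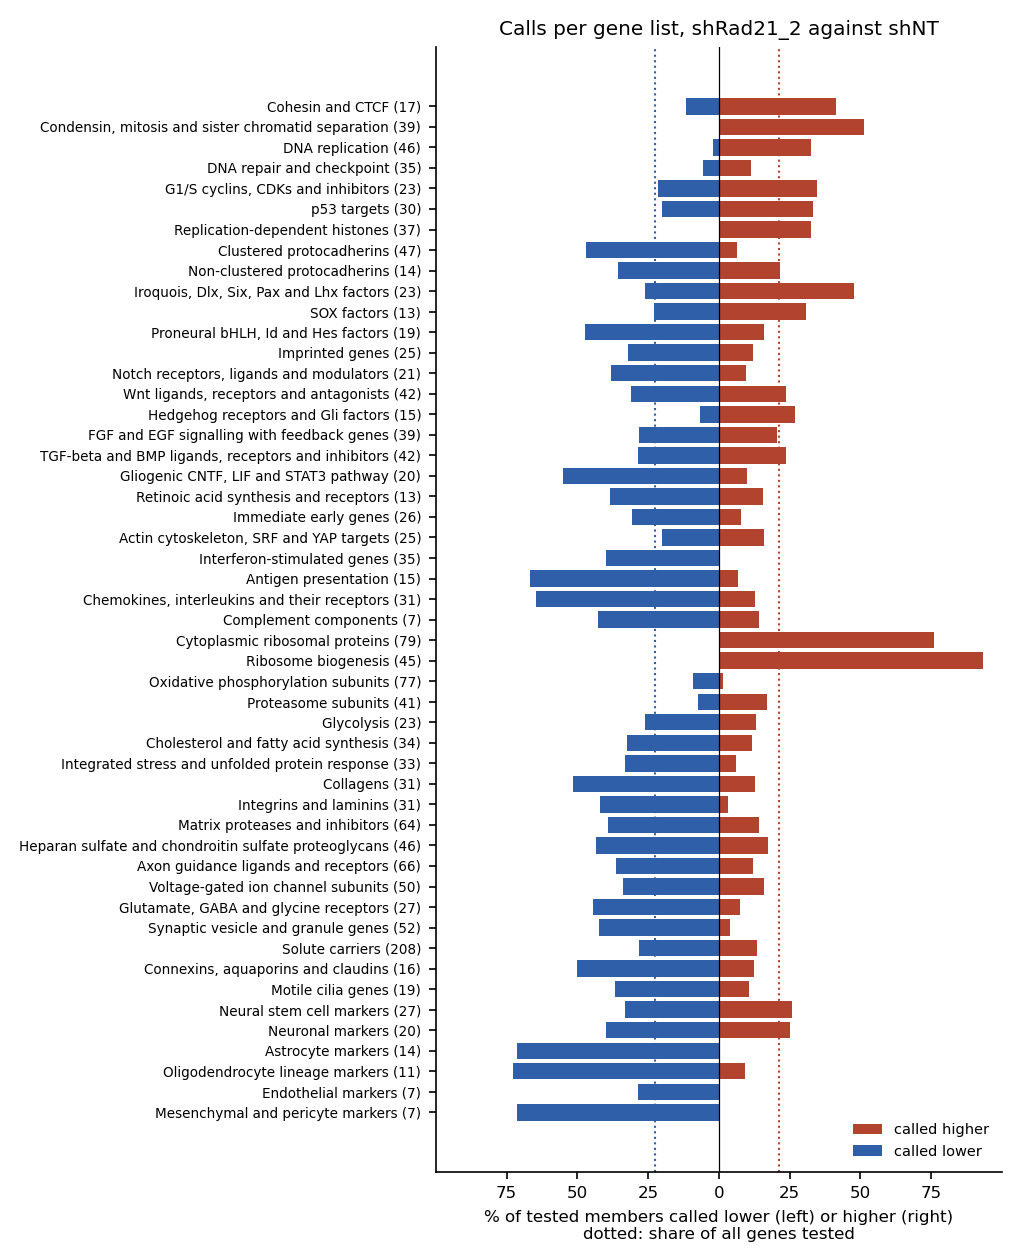
For each gene list with 7 or more tested members (number in brackets), the percentage called higher (red, to the right) and lower (blue, to the left), with dotted lines at the shares over all genes, 21.1% and 22.5%. Ribosome biogenesis reaches farthest to the right and the oligodendrocyte, astrocyte and mesenchymal marker lists farthest to the left.

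Genes of innate immunity were called lower more often than higher. Of all genes, 21.1% were called higher and 22.5% lower, and in the bin with the lowest shNT level 11.4% and 24.1%. The part of level in the immune calls was not tested. Of 35 tested genes known to respond to interferon, 14 were called lower and none higher, with a median log2 fold change of -0.75 (19 had an unadjusted p below 0.05, and DESeq2 and limma-voom each called 14). No interferon was named among the treatments. Parp12 went from 16.0, 16.1 and 16.8 to 9.92, 9.12 and 9.99 CPM (-0.75 ± 0.11). Without shNT replicate 1 or shRad21_1 replicate 1, a single member was called higher.

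The interferon-stimulated response element, searched as GAAANNGAAA on both strands of the same 250 bases, lay in 9 of 27 promoters of this list (33.3%) against 2.91% of all promoters and 2.94% of those of genes called lower. Of those 9 genes, Gbp2 and Igtp were called lower and Gbp3, Isg15, Ifit1, Ifit3, Stat2, Rsad2 and Bst2 were not called. Called lower were 40% of the whole list and 22.5% of all genes, so members with the element were not called lower more often. The promoters of Gbp2, Igtp and Gbp3, guanosine triphosphatases of cell-autonomous defence, are shown because they hold the same element beside unlike changes, and that of H2-T23, a nonclassical MHC class I gene, because it holds the element and was called lower. Of 12 antigen presentation promoters, 2 held the element. The other was that of B2m, which was not called (-0.27). The promoters shown were chosen after their values were seen. Each is the 250 bases before the start, 5′ to 3′ on the gene's strand, with the element in capitals, from RefSeq on GRCm38.p6. Gbp2 is chr3:142620413-142620662 on the plus strand, Gbp3 chr3:142559794-142560043 plus, Igtp chr11:58199306-58199555 plus and H2-T23 chr17:36032702-36032951 minus.

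Gbp2: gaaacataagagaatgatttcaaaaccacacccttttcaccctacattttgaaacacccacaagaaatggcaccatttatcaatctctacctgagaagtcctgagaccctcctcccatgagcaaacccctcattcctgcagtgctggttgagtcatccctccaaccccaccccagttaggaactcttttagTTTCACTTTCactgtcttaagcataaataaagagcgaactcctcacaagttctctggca
Gbp3: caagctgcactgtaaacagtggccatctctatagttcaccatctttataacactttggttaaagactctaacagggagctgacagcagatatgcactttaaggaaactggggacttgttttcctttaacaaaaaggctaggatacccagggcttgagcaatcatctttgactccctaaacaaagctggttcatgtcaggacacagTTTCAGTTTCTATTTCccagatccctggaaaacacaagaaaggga
Igtp: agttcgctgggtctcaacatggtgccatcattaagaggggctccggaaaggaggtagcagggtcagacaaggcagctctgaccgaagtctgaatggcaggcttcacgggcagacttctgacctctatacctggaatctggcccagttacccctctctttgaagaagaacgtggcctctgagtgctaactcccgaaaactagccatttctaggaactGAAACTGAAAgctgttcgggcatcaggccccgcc
H2-T23: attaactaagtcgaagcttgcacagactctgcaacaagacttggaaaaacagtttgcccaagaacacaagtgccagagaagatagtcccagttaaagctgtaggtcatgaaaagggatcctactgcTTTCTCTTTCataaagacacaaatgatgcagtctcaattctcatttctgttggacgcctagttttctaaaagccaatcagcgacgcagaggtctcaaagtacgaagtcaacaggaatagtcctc

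The element began 59 bases before the start of Gbp2 and 34 before that of Igtp, and overlapping matches began 45 and 39 bases before that of Gbp3. Gbp2 fell from 1.76, 1.61 and 1.62 to 0.399, 0.293 and 0.257 CPM (-2.36 ± 0.38). Igtp fell from 0.605, 0.968 and 0.998 to 0.310, 0.088 and 0.114 CPM (-2.25 ± 0.60). Gbp3 overlapped between groups at 14.8, 9.77 and 9.36 against 12.2, 9.24 and 10.1 CPM (-0.10 ± 0.25, edgeR adjusted p = 0.777). The ubiquitin-like modifier Isg15 (-1.41 ± 0.62) and Ifit3 (-1.49 ± 0.82), both at low counts, had large estimates that did not pass. Of the others not called, Ifit1 and Bst2 had log2 fold changes of 0.52 and 0.48, and Stat2 and Rsad2 -0.11 and -0.55.

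Antigen presentation by MHC class I was lower in 10 of 15 tested genes and higher in 1, H2-D1 (0.31, a call lost without shNT replicate 1, shNT replicate 2 or shRad21_2 replicate 3). H2-K1, a class I heavy chain, went from 65.6, 87.8 and 81.7 to 27.4, 28.5 and 31.1 CPM (-1.44 ± 0.14). Tapbp, which loads peptides on it, went from 31.5, 35.9 and 38 to 15.5, 12.4 and 13.8 CPM (-1.33 ± 0.16). The immunoproteasome subunits Psmb8 and Psmb9 fell by 2.46 ± 0.30 and 2.28 ± 0.41, and H2-T23 by 1.45 ± 0.19. B2m, the invariant light chain, was not called (-0.27).

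Position and function coincide for some of that group: Tapbp (chr17:33915899-33929292), H2-K1 (chr17:33996017-34000347), Psmb9 (chr17:34181987-34187764) and Psmb8 (chr17:34197721-34201454) all lie in the MHC region. The region was not lower throughout. Rxrb (chr17:34031812-34038399), between H2-K1 and Psmb9, was called higher (0.46). Psmb10, the other immunoproteasome gene called lower, lies on chromosome 8. Class I genes are near-identical to each other, so counts of single heavy chains are uncertain.

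Chemokines, interleukins and their receptors gave 20 lower and 4 higher calls among 31 tested of 111 listed, most of the others having too few counts, with a median of -1.05. Ackr3, the scavenger receptor of Cxcl12, fell from 6.27, 4.37 and 5.54 to 0.0886, 0.117 and 0.171 CPM (-5.41 ± 0.45). Il1rap, the shared chain of receptors for IL-1 and IL-33, went from 108, 114 and 107 to 23.9, 24.1 and 23.7 CPM (-2.20 ± 0.20, edgeR adjusted p = 3.26e-05). Its ligand gene Il33 fell by 3.52 ± 0.33 and Il18 by 1.88 ± 0.18. The 4 higher were Il25, Il17ra, Il15ra and Il20rb (0.68 to 1.52), and the count was 2 when any shNT library or replicate 2 of either Rad21 hairpin was left out.

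Of 7 complement genes tested, C2 (-4.10 ± 0.68), C4b (-3.77 ± 0.64) and C1rl were called lower, the last lost without shNT replicate 2 or 3 or any shRad21_2 library. The lower calls were 6 without shRad21_1 replicate 1. C1qbp, a mitochondrial protein despite its name, rose by 0.46 ± 0.09. The microglial markers Aif1, C1qa, C1qb, Cx3cr1, Trem2 and Tyrobp had 0 counts in all 6 libraries.

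**Figure D4:**
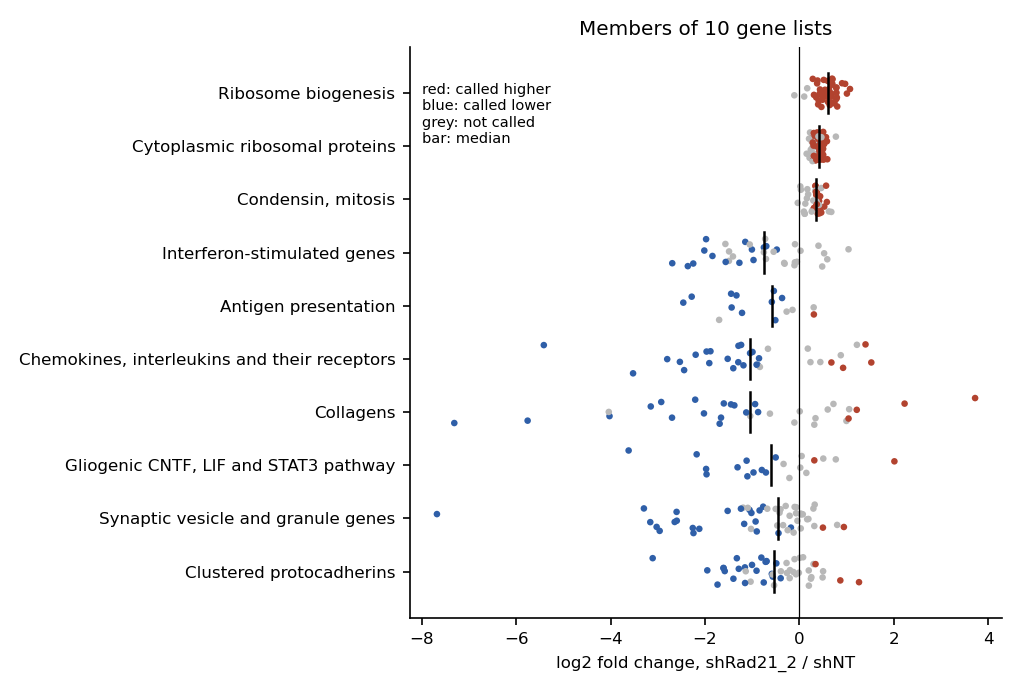
Log2 fold change (horizontal axis) of every tested member of 10 gene lists, with members called higher in red, called lower in blue and not called in grey, and a bar at each list's median. Ribosome biogenesis members sit together at a median of 0.60 while the immune, collagen and synaptic lists spread over several units below 0.

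Signals that steer the stem cells changed in part. In the pathway of CNTF, LIF and STAT3, which promotes astrocyte formation, 11 of 20 genes (55%) were lower and 2 (10%) higher. Of all genes, 22.5% were lower and 21.1% higher. Osmr, the oncostatin M receptor, went from 2.25, 2.64 and 3.81 to 0.288, 0.176 and 0.228 CPM (-3.62 ± 0.39). Lifr, the LIF receptor, went from 98.7, 96.7 and 86.6 to 50.1, 66.3 and 46.0 CPM (-0.80 ± 0.13). The feedback inhibitor Socs3 had -1.98 and Stat3 itself -0.50, both called lower. The ligand gene Clcf1 fell by 2.18. Ptpn11, a phosphatase downstream, was among the 2 higher and rose by 0.32, a call lost without shNT replicate 2 or 3.

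In the Notch pathway 8 of 21 genes (38.1%) were lower and 2 (9.52%) higher, beside 22.5% and 21.1% of all genes. The higher genes were Notch2 and Jag2 (0.77 each). The receptor gene Notch3 fell from 152, 154 and 151 to 50.8, 54.3 and 43.4 CPM (-1.62 ± 0.16). Nrarp, a target and feedback inhibitor, went from 92.2, 65.2 and 65.5 to 19.2, 19 and 18.0 CPM (-1.99 ± 0.26), and the ligand-like gene Dner from 103, 92.0 and 93.4 to 24.0, 20.4 and 21.0 CPM. Lfng, which adds sugars to Notch, fell by 0.70 ± 0.10. The 2 higher calls were 0 without shNT replicate 3 or shRad21_2 replicate 1 and 1 when replicate 1 or 2 of shNT, 2 or 3 of shRad21_1 or 2 of shRad21_2 was left out.

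The Wnt pathway had 13 (31%) lower and 10 (23.8%) higher of 42, beside 22.5% and 21.1% of all genes. The ligand genes Wnt7a, Wnt7b, Wnt5b and Wnt4 were all lower. Wnt7a (chr6:91363981-91411363) stood at 79.3, 64.6 and 66.2 CPM in shNT and 3.45, 3.28 and 3.28 CPM in shRad21_2 (-4.39 ± 0.28, edgeR adjusted p = 4.49e-06). Wnt7b went from 60.6, 54.2 and 52.7 to 5.65, 5.04 and 4.05 CPM (-3.50 ± 0.29). Wnt5b fell by 3.02 ± 0.17, and Wnt5a was the ligand called higher (1.06). The nuclear factors Tcf7l1 (1.70), Lef1 (1.56) and Tcf7 (1.37) were called higher, Lef1 not without shNT replicate 1 or 2 or shRad21_2 replicate 1.

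Of 15 Hedgehog components 4 (26.7%) were called higher and 1 lower, beside 21.1% and 22.5% of all genes. Gli3, a repressor of the pathway in cortex, rose from 18.3, 16.9 and 16.9 to 48.0, 64.1 and 46.1 CPM (1.60 ± 0.14). Gli2 rose by 1.02 ± 0.13, the co-receptor gene Gas1 by 0.95 ± 0.09 and Smo, the signal transducer, by 0.43 ± 0.09. Dhh, a ligand, was the member called lower (-0.90). Lower calls were 0 without shNT replicate 2 or 3 or shRad21_2 replicate 3, 2 without shNT replicate 1 or shRad21_2 replicate 1, and 4 without shRad21_1 replicate 1.

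For the FGF and EGF that feed these cultures, 11 of 39 genes (28.2%) were lower and 8 (20.5%) higher. Of all genes, 22.5% were lower and 21.1% higher. The receptor gene Fgfr2 fell from 23.1, 22.7 and 23.1 to 3.10, 2.99 and 3.08 CPM (-2.91 ± 0.12, edgeR adjusted p = 4.88e-07), while Fgfr1 was not called (0.04). Lrig1, a brake on EGF receptors, went from 501, 591 and 582 to 141, 159 and 146 CPM (-1.91 ± 0.23). Egfr fell by 0.61. Fgf13, an intracellular regulator of sodium channels, rose from 0.0275, 0 and 0.0665 to 0.819, 1.23 and 0.970 CPM (4.83 ± 0.62).

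TGF-beta and BMP genes were split, 10 (23.8%) higher and 12 (28.6%) lower of 42, beside 21.1% and 22.5% of all genes. Among secreted modulators, Fstl1 fell by 2.15 ± 0.11, Chrdl1 fell by 2.22 ± 0.25 and the latency protein gene Ltbp1 by 1.57 ± 0.15. Bmp1, a procollagen protease rather than a BMP ligand, fell by 1.02 ± 0.09. Among retinoic acid genes 5 of 13 were lower and 2 higher. Cyp26b1, which degrades retinoic acid, fell by 3.60 ± 0.49 and Aldh1a3, which makes it, by 3.37 ± 0.65, while Aldh1a1 and the receptor gene Rxrb rose (2.95 and 0.46).

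Immediate early genes, induced within minutes by growth factors, had 8 lower and 2 higher of 26, and lower calls were 5 without shRad21_2 replicate 2 or 3. Fos, a subunit of AP-1, went from 93.3, 137 and 140 to 14.8, 15.7 and 17.1 CPM (-2.96 ± 0.69). shNT replicate 1 was the lowest control in Fos, Fosb and Ier3 alike. The higher members were Klf2 and Maff, and 1 was called without shNT replicate 1 or 2 or shRad21_2 replicate 3. Of 25 genes of the actin cytoskeleton and the SRF and YAP targets, 5 (20%) were lower and 4 (16%) higher. These shares lay just below the 22.5% and 21.1% of all genes. Acta2, smooth muscle actin, fell from 1.65, 3.71 and 3.90 to 0.155, 0.088 and 0.200 CPM, and Tpm4, a tropomyosin, rose by 0.70 ± 0.08. The 4 higher calls became 8 without shRad21_1 replicate 1.

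Transcription factors of patterning were called in both directions. Among Iroquois, Dlx, Pax, Lhx, Zic and related homeobox or zinc-finger factors, 11 of 23 (47.8%) were higher and 6 (26.1%) lower. Of all genes, 21.1% were higher and 22.5% lower, so the share lower was near that of all genes. Irx5 rose from 4.54, 3.38 and 3.75 to 15.7, 11 and 14.1 CPM (1.81 ± 0.17). Zic1 and Zic2, factors of dorsal neural tissue, rose by 0.66 ± 0.10 and 0.65 ± 0.08. Nkx2-2, a factor of oligodendrocyte precursors, fell from 3, 4.41 and 4.66 to 0.997, 0.440 and 0.599 CPM (-2.54 ± 0.34). Higher calls were 7 without shNT replicate 1 or 2 or shRad21_2 replicate 1, and lower calls 3 without shRad21_2 replicate 2.

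Of 13 SOX factors 4 (30.8%) were higher and 3 (23.1%) lower, beside 21.1% and 22.5% of all genes. Sox1, a factor of neural progenitors, rose from 84.9, 59.5 and 63.5 to 110, 110 and 116 CPM (0.69 ± 0.12), and Sox5 fell by 1.53 ± 0.25. Sox12 rose by 0.41 ± 0.10, and Sox7, at low counts, fell by 2.26 ± 0.46. Higher calls were 2 without shNT replicate 2 or 3 or shRad21_2 replicate 2. Among 19 bHLH, Id and Hes genes 9 were lower and 3 higher. Id3, an inhibitor of bHLH factors, went from 187, 256 and 270 to 78.0, 62.1 and 70.5 CPM (-1.76 ± 0.32), Bhlhe41 fell by 3.24 ± 0.37 and the E protein gene Tcf3 rose by 0.44 ± 0.07. Of 39 Hox genes listed, 30 had no count in any of the 9 libraries and 5 were tested. Of these, 2 were called lower, among them Hoxa5 (-1.45 ± 0.24), while Hoxa2, Hoxa3 and Hoxa4 had 0.53 ± 0.50, -0.24 ± 0.25 and -0.61 ± 0.34 with overlapping groups and were not called. Hoxa4 passed without shRad21_2 replicate 3 (-1.05).

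Imprinted genes, expressed from 1 parental copy, were lower in 8 (32%) and higher in 3 (12%) of 25, beside 22.5% and 21.1% of all genes. Mest, an early growth gene (chr6:30723547-30748465), went from 797, 749 and 743 to 252, 229 and 245 CPM (-1.66 ± 0.19). Nnat fell from 380, 329 and 325 to 199, 176 and 205 CPM. Ndn, which encodes necdin, rose from 25, 26.9 and 27.3 to 48.5, 45.6 and 53.7 CPM (0.90 ± 0.09). The other higher genes were Cdkn1c and Airn (1.39), and the number was 5 without shRad21_1 replicate 1. Airn is antisense to Igf2r, and the sources do not give a strand setting for the counts. The files give no allele, so which copy changed was not analysed here.

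Adhesion and matrix genes were called lower more often than higher. Of all genes, 22.5% were called lower and 21.1% higher. Clustered protocadherins, whose promoters are chosen with help from Ctcf and cohesin and which give neurons surface identities, were lower in 22 and higher in 3 of 47 tested (Pcdha9, Pcdhb3 and Pcdhb5, from 0.34 to 1.26). Pcdhgc3 went from 1612, 1580 and 1558 to 1054, 941 and 929 CPM (-0.70 ± 0.08). Pcdhgb8 fell by 1.40 ± 0.16, Pcdhga7 fell by 1.61 ± 0.22 and Pcdhga10 by 1.95 ± 0.22. Gamma isoforms share their last exons, so reads there had to be divided among them. Of 14 non-clustered members 5 (35.7%) were lower and 3 (21.4%) higher, the latter near the share of all genes. Pcdh15 fell from 59.8, 44.1 and 41.7 to 3.19, 4.08 and 1.91 CPM (-3.99 ± 0.42), while Fat3, an atypical cadherin, rose to 51.6, 116 and 34.1 from 24.1, 19.1 and 18.6 CPM. The 5 lower calls were 3 without shNT replicate 3 or shRad21_2 replicate 3.

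Of 31 collagen genes 16 were lower and 4 higher, with a median of -1.04. The basement membrane chains of type IV fell in pairs that share promoters. Col4a1 (chr8:11198423-11312826) went from 67.0, 74.3 and 76.0 to 24.2, 24.0 and 23.4 CPM (-1.60 ± 0.09), and its divergent neighbour Col4a2 (chr8:11312805-11449287) from 29.9, 29.8 and 30.6 to 11.4, 10.8 and 10.9 CPM (-1.45 ± 0.09). Col4a5 fell by 2.21 ± 0.11 and its divergent neighbour Col4a6 by 3.15 ± 0.18. The higher collagens were Col28a1, Col6a4, Col27a1 and Col23a1.

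Of 31 integrin and laminin genes, which encode receptors of the matrix and a part of it, 13 were called lower, 17 were not called and Lama1 alone was higher (2.88, with 4, 3 and 2 higher calls without shRad21_1 replicates 1, 2 and 3). Itga6, the laminin receptor chain of neural stem cells, which here grew on laminin, went from 203, 192 and 190 to 55.4, 61.8 and 51.8 CPM (-1.79 ± 0.10, edgeR adjusted p = 3.22e-06). Itgav and Itgb8, which pair to activate TGF-beta, fell by 0.89 ± 0.11 and 1.82 ± 0.22.

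Of 64 matrix proteases and inhibitors 25 were lower and 9 higher (5 without shNT replicate 2). Timp2, an inhibitor of metalloproteases, had the smallest adjusted p of the genes named here, at 128, 130 and 129 CPM in shNT and 15.1, 15.4 and 16.1 CPM in shRad21_2 (-3.05 ± 0.08, edgeR adjusted p = 7.7e-08). Mmp14, an activator of such proteases, fell by 1.2 ± 0.15 and the sheddase Adam10 by 0.69 ± 0.07. Adam19 rose from 210, 218 and 211 to 551, 573 and 468 CPM (1.32 ± 0.15).

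Proteoglycans and the enzymes that sulfate them were lower in 20 and higher in 8 of 46. Cspg5, neuroglycan C (chr9:110243783-110262576), went from 486, 441 and 462 to 44.5, 44.9 and 49.3 CPM (-3.32 ± 0.18, edgeR adjusted p = 2.78e-06). Chst2, a sulfotransferase, went from 359, 397 and 402 to 50.7, 49.8 and 47.8 CPM, and Chst11 fell by 1.69 ± 0.12. Sulf1, which removes sulfate outside the cell, fell by 5.93 ± 0.41. Higher calls were 4 without shNT replicate 2 or 3.

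Genes that neurons and glia use to find and speak to each other were lower in larger numbers than higher. Of all genes, 22.5% were called lower and 21.1% higher, and of the bin with the longest genes 30.1% and 18.9%. The part of gene length and level in the calls of these lists was not tested. In axon guidance 24 of 66 (36.4%) were lower and 8 (12.1%) higher. The higher calls were 5 and 4 when shNT replicates 2 and 3 were left out in turn, and 13 for shRad21_1 replicate 1. Ntn4, a netrin, went from 92.6, 94.5 and 95.4 to 41.3, 42.2 and 37.5 CPM (-1.22 ± 0.10), and the semaphorin receptor Plxnb3 from 30.5, 31.8 and 30.0 to 8.73, 8.48 and 6.71 CPM.

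Among 27 glutamate, GABA and glycine receptor genes 12 (44.4%) were lower and 2 (7.41%) higher, Gabra2 and Grid1. Gria4, an AMPA receptor subunit, fell from 69.2, 64.0 and 63.4 to 12.2, 18.4 and 13.9 CPM (-2.15 ± 0.18) and Grin3a fell by 1.83 ± 0.11. Voltage-gated channels gave 17 (34%) lower and 8 (16%) higher of 50, beside 22.5% and 21.1% of all genes. Kcna2, a potassium channel, went from 197, 138 and 129 to 25, 19.9 and 12.8 CPM (-3.01 ± 0.32). Higher channel calls were 4 without shNT replicate 2 or shRad21_2 replicate 1, 3 without shNT replicate 3 and 5 without shRad21_2 replicate 2.

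Genes of synaptic vesicles and secretory granules were lower in 22 (42.3%) and higher in 2 (Syt12 and Rab3a) of 52. Of all genes, 22.5% were lower and 21.1% higher. Rab3b, a vesicle GTPase, went from 366, 441 and 434 to 71.8, 40.7 and 46.6 CPM (-2.96 ± 0.23). Syn2 (-2.60 ± 0.16) and the granin Scg3 (-2.60 ± 0.18) fell, and Sv2a fell by 2.12 ± 0.22. The higher calls were 1 without shNT replicate 2 or 3 or shRad21_2 replicate 2 and 4 without shRad21_1 replicate 1.

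Of 208 solute carriers 59 (28.4%) were lower and 28 (13.5%) higher (18 without shNT replicate 3). Of all genes, 22.5% were lower and 21.1% higher. Beside Slc6a11, the sodium-proton exchanger Slc9a7 fell from 17.9, 17.5 and 16.0 to 4.94, 5.66 and 4.45 CPM (-1.77 ± 0.12), the choline transporter Slc44a1 by 1.31 ± 0.11 and Slc37a2 by 1.36 ± 0.10. Connexins, aquaporins and claudins gave 8 lower and 2 higher of 16, and the higher calls were 1 without shNT replicate 3 or shRad21_2 replicate 1 or 3. Gjc1, connexin 45, rose from 23.3, 17.8 and 18.8 to 58.4, 64.7 and 66.5 CPM (1.66 ± 0.11), and Gjc3, a glial connexin, went from 30.4, 35.3 and 37.2 to 5.98, 8.50 and 5.39 CPM.

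Motile cilia genes, expressed by ependymal cells, were lower in 7 of 19, among them Foxj1, the factor that switches the programme on, at 33.0, 36.9 and 39.0 CPM in shNT and 7.42, 4.16 and 5.14 CPM in shRad21_2 (-2.69 ± 0.19). Hydin, which belongs to the same programme, moved the other way with Ccdc40 (1.24), and both were the 2 called higher. The shares were 36.8% lower and 10.5% higher, beside 22.5% and 21.1% of all genes. Drc1 (-3.81 ± 0.54) and Rsph9 (-1.58 ± 0.27) fell. Without shNT replicate 2 the calls were 1 higher and 4 lower, and without shRad21_2 replicate 3 there was 1 higher.

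Marker lists were used to check the labelled cell type and to look for others. In bulk RNA, fewer cells of a type and less RNA per cell cannot be told apart. Neural stem cell markers summed to between 13029 and 13126 CPM in shNT and to between 10625 and 11419 CPM in shRad21_2, with Nes, Pax6, Sox1 and Prom1 among 7 called higher and Ptprz1, Ednrb and Slc1a3 among 9 lower, of 27. Ednrb, the endothelin receptor of radial glia, went from 419, 448 and 441 to 158, 152 and 142 CPM (-1.53 ± 0.08). Sox2 and Hes1, also defining, had log2 fold changes of -0.06 and -0.04 and were not called. Of this list, 25.9% was called higher and 33.3% lower, beside 21.1% and 22.5% of all genes.

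Astrocyte markers, with 10 of 14 lower and none higher, summed to between 2022 and 2295 CPM in shNT and between 1168 and 1348 CPM in shRad21_2 (in DESeq2, 11 were called, in limma-voom 9, and 11 had an unadjusted p below 0.05). A single astrocyte marker was called higher without shNT replicate 1 or shRad21_1 replicate 1. Atp1b2, a glial sodium pump subunit, went from 336, 384 and 362 to 34.6, 33.1 and 32.7 CPM (-3.43 ± 0.47), and Slc4a4 from 195, 203 and 191 to 29.7, 41.9 and 29.0 CPM. Oligodendrocyte lineage markers were lower in 8 and higher in 1 (Olig2, 0.33) of 11. Of all genes, 22.5% were called lower and 21.1% higher. Pdgfra fell from 65.2, 61.3 and 60.5 to 4.25, 6.19 and 5.17 CPM (-3.59 ± 0.26), and Gpr17 had 60, 15 and 25 counts in shNT and none in shRad21_2, which makes it at least 30.8-fold lower against a floor of 3 counts over the group. The call of Cspg4 (-0.65 ± 0.19) was lost without shNT replicate 2 or shRad21_2 replicate 1 or 3. The list's summed level overlapped between groups, at 3083 to 3212 CPM and 2949 to 3395 CPM.

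Neuronal markers were lower in 8 (40%) and higher in 5 (25%) of 20, beside 22.5% and 21.1% of all genes. Their sums were 1326 to 1438 CPM in shNT and 1174 to 1290 CPM in shRad21_2. Gap43, a growth cone protein, fell from 400, 418 and 423 to 168, 95.3 and 112 CPM (-1.72 ± 0.18), Mapt by 2.36 ± 0.35 and Gad1, which makes GABA, by 2.93 ± 0.16. Calb2, the calcium buffer calretinin, moved from 0.0825, 0.0236 and 0 to 3.92, 2.73 and 3.20 CPM (6.52 ± 1.26). The 5 higher calls were 3 without shNT replicate 2.

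Markers of other cell types were at low levels. Endothelial markers summed to between 11.3 and 11.8 CPM in shNT and between 10.3 and 12.4 CPM in shRad21_2, where Kdr fell by 1.56 ± 0.25, Flt1 had 38 counts against 0 (at least 11.7-fold lower), and Esam (1.16 ± 0.69) and Emcn (0.58 ± 0.36) were not called. A single endothelial marker was called higher without shRad21_1 replicate 1. Microglial markers summed to between 32.9 and 36.6 and then 19.1 and 21.5 CPM, with P2ry12 called lower at -2.37 ± 0.40 and Cd68, not called, at -0.36 ± 0.33. Epithelial markers summed to between 0.236 and 0.819 CPM, and none could be tested.

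Mesenchymal and pericyte markers were lower in 5 of 7, beside 22.5% of all genes. Their sums were 223 to 244 CPM in shNT and 118 to 128 CPM in shRad21_2. Prrx1, a mesenchymal homeobox gene, went from 88.5, 108 and 107 to 34.2, 29.0 and 27.8 CPM (-1.73 ± 0.14), Foxc1 fell by 0.36 ± 0.09, and Dcn had 0 counts in all 6 libraries. The 5 calls were 3 without shNT replicate 2 or shRad21_2 replicate 1 or 3. These markers moved with the collagens, and their part in the collagen result was not tested. Muscle markers summed to between 30.8 and 40.3 CPM and between 23.4 and 31.6 CPM. Actc1, cardiac actin, fell by 4.33 ± 0.37, Myh7 (0.56 ± 0.12) and Myod1 (1.38 ± 0.35) rose, and Tnnt1 (-1.36 ± 0.52) was not called. Lower muscle calls were 2 without shRad21_1 replicate 1 or 2.

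Cohesin links genes to distant sequence along a chromosome, so the direction of change was compared between neighbours. Among pairs of tested genes next to each other where both were called, 59.9% of 2614 changed in the same direction, against the 50.1% that the shares of higher and lower calls give. For pairs where both were at least 2-fold changed it was 85.6% of 299 (256 pairs), against 66.8% from the shares. At a rank distance of 3 the values were 52.5% and 72.2%, and at 50 they were 50.6% and 70.6%. Leaving out clustered protocadherins and histones gave 59.7% and 85.6%, and pairs whose spans do not overlap 59.5% and 85.1%. By distance between starts, in those separate pairs, the share among called genes fell from 70.2% of 114 pairs under 2 kb to 58.1% of 778 pairs at 100 to 500 kb and 52.7% of 283 pairs beyond. For 2-fold pairs it was 100% of 9, 80% of 115 and 80% of 40, beside 66.8% from the shares. Neighbouring genes are not independent of each other, and no test was made of these shares.

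**Figure D5:**
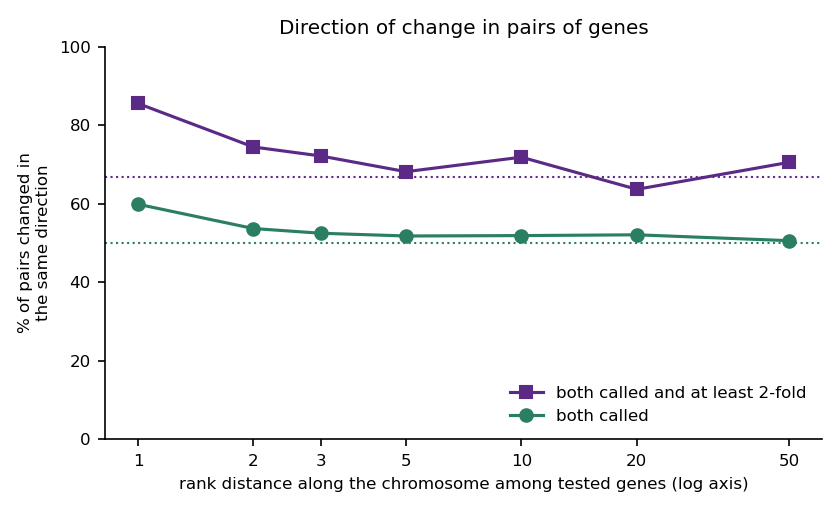
Share of gene pairs that changed in the same direction (vertical axis, %) by their rank distance among tested genes on a chromosome (log axis), for pairs with both genes called (circles) and both called and at least 2-fold changed (squares). Dotted lines are the shares that follow from the counts of higher and lower genes alone, 50.1% and 66.8%, and both curves are highest at distance 1.

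Runs of 5 or more neighbours called in 1 direction show what such stretches look like. They are given as examples. On chromosome 5, between 75075601 and 76155504, lie Gsx2, Pdgfra, Kit, Kdr and Srd5a3, all lower. Kit, a receptor tyrosine kinase, went from 32.2, 38.1 and 36.9 to 4.89, 6.69 and 4.57 CPM (-2.73 ± 0.18), its neighbour Pdgfra had -3.59 and Gsx2, a homeobox factor, -2.25 ± 0.44. Kit and Pdgfra are related kinases of 1 gene family, so shared position and shared ancestry go together there. On chromosome 9, Tmprss5, Ttc12, Ncam1, Pts, Il18, Bco2 and Sdhd were lower, with a median of -1.85. Ncam1, the adhesion molecule that carries polysialic acid, went from 268, 312 and 297 to 126, 109 and 103 CPM (-1.38 ± 0.18). On chromosome 3 a run of 7 was higher, from Arhgap29 to Pde5a, led by Bcar3, an adaptor of integrin signalling, at 32.5, 30.7 and 31.6 and then 76.8, 79.9 and 78.7 CPM (1.31 ± 0.10).

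Genes with transcripts in 1 group alone were few at 100 counts or more. Dhrs7c had 68, 20 and 43 counts in shRad21_2 and none in shNT, at least 47.3-fold higher. Gpr17 was the reverse, as given above. Apoo-ps, a pseudogene, had all of its 107 counts in shNT replicate 3, so that value belongs to 1 library.

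The weaker hairpin helps to place these values. Against shRad21_1, 3563 genes (26.3%) were called in shRad21_2. Rad21 was lower in shRad21_2 than in shRad21_1 by 1.08 (edgeR adjusted p = 5.55e-05). The comparisons of each hairpin with shNT share the control libraries, so their values are only set side by side. Against shNT, 1331 genes were called under shRad21_1. Of these, 1079 were called in the same direction under shRad21_2 and 16 in the opposite one, a count on which the shared controls bear. Prom1 had log2 fold changes of 2.55 under shRad21_2 and 2.61 under shRad21_1, and the difference of -0.06 was not called (edgeR adjusted p = 0.818). Irx5 had 1.81 and 1.84, and Calb2 6.52 and 6.46. Slc6a11 had -6.77 and -1.77 (difference -5.0, edgeR adjusted p = 0.000217), and Wnt7b -3.50 and -0.19 (difference -3.31, edgeR adjusted p = 8.58e-05).

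Other genes, given as examples picked with their values known, moved under shRad21_2 and less, or the other way, under shRad21_1. Car12 had a log2 fold change of 3.07 under shRad21_2 and -0.01 under shRad21_1, and the difference of 3.08 was called (edgeR adjusted p = 1.76e-05). Grm5 had -4.44 and -0.47, Gria4 -2.15 and -0.03 and Col4a5 -2.21 and -0.16, each with a called difference. Hoxa5 had -1.45 and 0.98 (difference -2.44, edgeR adjusted p = 0.000151), and Myh7 0.56 and -0.58. With 1 hairpin at each level of Rad21, dose of Rad21 and identity of the hairpin cannot be told apart. The number of genes called between hairpins was 2045 without shRad21_1 replicate 2 and 2055 without shRad21_1 replicate 3.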

How the data were processed

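Libraries were made from fragmented mRNA of neural stem cells with random hexamer primers, per the labels. The authors deposited 1 table of whole-number counts per gene for 9 libraries. Per the submitters' processing notes, FastQC, cutadapt, Trim Galore, Bowtie2 and RSEM were used with mm10, without versions or settings, so the counts may be rounded estimates. No source used here gives the strand setting or annotation. Totals ran from 34780003 to 46644607 counts in the 6 libraries compared. Of 24503 genes, 6715 had no count.

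Genes were kept by edgeR's filterByExpr (13560), scaled by TMM and fitted with edgeR 4.0.16 (R 4.3.3) as 3 group means over all 9 libraries, with a quasi-likelihood test of shRad21_2 against shNT and Benjamini-Hochberg adjustment over all genes. Standard errors are the log2 fold change over the root of F. The fit was tested on simulated data. Genes were named by a rule: Rad21, the 15 largest fold changes and 5 largest CPM differences each way, 4 members per list by p and all members of lists with up to 5 tested, and further members where 5 or fewer were called in a direction. Some genes under the rule are not reported here. Any other gene named was picked with its values known. The members and the 54 lists were chosen with earlier results of these data known. Positions are from GENCODE vM21 (GRCm38), matched by symbol for 96.1% of tested genes, and promoters from RefSeq on GRCm38.p6. Promoters were found for 10263 genes. DESeq2 1.42.0, limma-voom (limma 3.58.1), other scalings and filters, a replicate block, leaving out each library and a pair of alternatives chosen after seeing the data were tried, 19 in all.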

Additional observations from a re-analysis of the deposited data

How the results depend on the processing

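None of the 236 genes named by the rule turned direction under any of the 19 alternatives that tested it. The 5917 calls ranged from 4263 to 6858 with single libraries left out, the higher calls from 1926 to 3329, the lower from 2337 to 3529 and the 2-fold calls from 1549 to 1914. Rad21 ranged from -2.54 to -2.41. Calls between hairpins ranged from 2045 to 4486 with single libraries left out. Summing the close libraries (shNT 2 with 3, shRad21_1 2 with 3), chosen after seeing the data, left 3707 genes called, 1580 of them higher, and 1270 between hairpins. That setting has fewer samples. Among lists, mitosis genes called higher went from 20 to 1 there, proteasome subunits from 7 to 0 and DNA replication genes from 15 to 4. Without shNT replicate 1 and shRad21_1 replicate 1, also chosen after seeing the data, 6618 were called. There mitosis genes called higher rose from 20 to 34 and DNA replication genes from 15 to 25. Libraries share replicate numbers. Deviations of libraries with the same number correlated at 0.064, 0.078 and 0.083 across genes, under 0.1, so the numbers were not taken as pairs, though each correlated best with its own number. A fit with the replicate number as a block called 6066 genes (2954 higher, 3112 lower), 1770 at 2-fold and 3643 between hairpins, with Rad21 at -2.49. Below about 1 CPM single counts weigh on a fold change, since 3 counts equal 0.0664 to 0.088 CPM in these libraries, and totals cover counting error only.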
